A study of Tetradesmus deserticola with 10 samples.

Results

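A set of 67 assembled genes of the desert green alga Tetradesmus deserticola (Acutodesmus deserticola to the submitters), strain Sni-2, stayed at or above 0.5 times its starting level on average in early drying and was at most 0.5 times the earlier libraries in late drying. The members were chosen on the measured values, out of 20783 assembled genes. A member had at least 200 counts summed over all 10 libraries. In the deposited expression signal, the higher Late library was at most 0.5 times the lowest of the Hydrated and Early libraries, and the Early mean was at least 0.5 times the Hydrated mean. The Dry mean and the Rehydrated mean were each at most 2 times the Hydrated mean. Of all genes, 3991 had the 200 counts. The choice of members rests on how libraries were scaled: with the signal rescaled to equal library totals the same rule gave 57 genes, of which 35 were among the 67.

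RNA was sequenced, after ribosomal RNA had been removed, from 40 µL drops of 6-week-old cultures that dried on round cover glasses and were then wetted, with 2 libraries at each of 5 stages. The Hydrated stage was taken directly after the transfer; Early came after 2.5 h of drying, when 25% of the volume was lost, and Late after 7.5 h, when 60% was lost. For the Dry stage the flat spots stayed in the chamber for 11 h more, until about 24 h from the start, and the Rehydrated stage followed 1 h after rewetting. A wet control over the same hours is not among the groups, so drying and elapsed time cannot be told apart. Whether both libraries of 1 stage derive from different cultures is not stated in the labels; the p-values thus reflect the scatter of these libraries, possibly technical.

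Some green algae of deserts survive the loss of nearly all cell water and take up growth again when wetted. As cells dry, water becomes too scarce for photosynthesis and growth, and a transcript's level then depends on how fast it is made and how fast it is broken down. Transcripts present in dry cells can be kept there until water returns. RNA levels in such a course are therefore read stage by stage.

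No table pairing the identifiers with gene names, sequences or positions was used here. Members are given by assembly identifier alone, without function, and no pathway list or marker of the species could be matched to the rows. Levels are relative to the other transcripts of a library, and in these bulk samples fewer cells of a type and less RNA per cell cannot be told apart. Libraries held between 644705 and 1917825 counts, the fewest in Rehydrated. Counts were scaled by TMM, which sets library sizes so that most genes keep their level; its factors went from 0.403 (Dry replicate 2) up to 1.99 (Rehydrated replicate 1). Scaling by library totals instead moved the median log2 fold change of all genes tested to -0.59 in Early vs Hydrated, -0.22 in Late vs Early, -1.32 in Dry vs Late and 2.28 in Rehydrated vs Dry, against -0.07, 0, -0.29 and 0.45 under TMM. All 67 members passed the filter on low counts, among 9856 genes tested.

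The members took a small part of all counts in the deposited table of genes, and that part shrank at Late and again at Dry. Their summed counts were 1.49% and 1.04% of all counts in the Hydrated libraries, 1.09% and 0.673% in Early, 0.203% and 0.113% in Late, 0.0319% and 0.0297% in Dry, and 0.160% and 0.113% in Rehydrated. Hydrated and Early libraries overlapped, both Late libraries lay below all of these, and both Dry libraries lay lowest. By stage the mean share was 1.27% ± 0.315 (Hydrated), 0.881% ± 0.294 (Early), 0.158% ± 0.0639 (Late), 0.0308% ± 0.00155 (Dry) and 0.136% ± 0.0327 (Rehydrated), each with its SD and n = 2. The Rehydrated mean share was 10.8% of the Hydrated one, and the Dry mean share 2.43%. These shares use the counts as deposited, with no scaling between libraries beyond the total; 95% Wilson intervals are drawn in the plot of shares and cover counting error only.

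**Figure D1:**
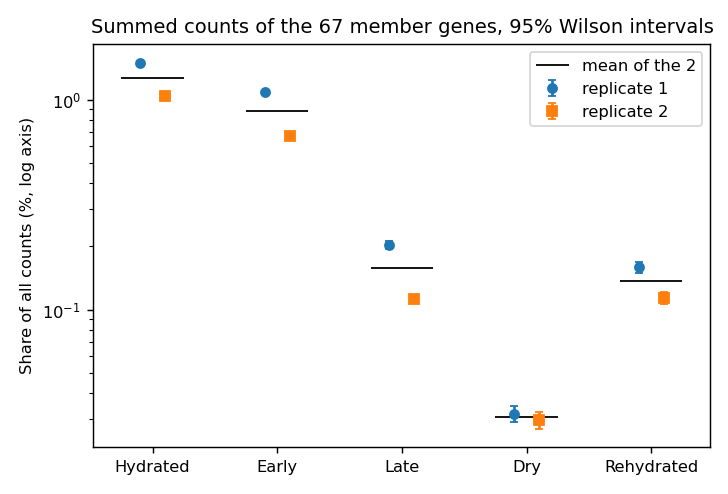
Summed counts of the 67 members as a percent of all counts in each library (log axis), by stage; points are libraries with 95% Wilson intervals and bars are the means of the 2 libraries. The shares lie between 0.673% and 1.49% in Hydrated and Early libraries, between 0.113% and 0.203% in Late, near 0.03% in Dry and between 0.113% and 0.160% in Rehydrated.

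Among themselves the members ranged over a wide span of levels. The deposited signal, which is corrected for gene length, had a median of 84.2 over the members' Hydrated means, with a range of 18.7 to 786. Over the 3991 genes with at least 200 counts the median was 26.7. Gene length, taken as counts over signal relative to the median of those 3991 genes in each library, had a median of 0.937 for the members and 0.993 for the 3991 genes. Counts were not whole in some library for 8 members (11.9%), against 771 (19.3%) of the 3991 genes; such counts arise where reads are divided between genes.

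In Early, 40 of the 67 members had a mean between 75% and 150% of their Hydrated mean, and 47 of the 67 were below 100% of it. The Early mean was between 50% and 75% of the Hydrated mean in 23 members, between 75% and 100% in 24, between 100% and 150% in 16, and at least 150% in 4. TRINITY_DN171573_c6_g2 was the 1 member called higher in Early than in Hydrated, and no member was called lower; 2.33% of all genes tested were called higher and 2.73% lower (edgeR's quasi-likelihood test, adjusted p of 0.05). At an unadjusted p under 0.05, 9 members were lower, and 20 with library totals. The share of all genes at that threshold was not counted, so both numbers are no result about the members. With library totals the median log2 fold change was -0.67 over the members and -0.59 over all genes tested. Over the 3991 genes with at least 200 counts it was -0.36. In the same order, the medians under TMM were -0.15, -0.07 and 0.15. The members' median minus that of the 3991 genes was thus -0.30 under each scaling. Whether the members differed from those genes in Early was not tested. With library totals in place of TMM, none was called higher and 1 was called lower, beside 0.345% and 3.79% of all genes tested. The rule held the Early mean above a limit, so these counts and medians describe the choice.

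At Late the fall ran from shallow to nearly complete. The higher Late library was under 10% of the lowest Hydrated or Early library in 8 members, between 10% and 25% in 9, between 25% and 40% in 22, and above 40% in 28. The Late mean had a median of 18.3% of the Hydrated mean, with a range of 0.623% to 45.3%. The test called 66 members lower in Late than in Hydrated, where 6.36% of all genes tested were lower, and 50 lower in Late than in Early, where 1.15% were. With library totals, 67 members were called lower against Hydrated and 42 against Early, beside 13.7% and 0.913% of all genes tested. The rule used these libraries, so the counts are a description of it. The median log2 fold change of the members was -1.96 in Late vs Early and 0 over all genes tested.

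Many members lay close to the limits of the rule. The member nearest the Late limit had a ratio of 0.49984 and the nearest gene outside it 0.50006, and 2292 genes failed on this limit alone. The smallest count sum among members was 212, against 194 for the nearest gene below. The lowest Early mean was 50.7% of the Hydrated mean among members and 47.2% in the nearest gene outside. The upper limits on Dry and Rehydrated were not near any member: the highest Dry mean was 0.829 times and the highest Rehydrated mean 0.590 times the Hydrated mean.

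The limits on Dry and Rehydrated left out 6 genes that met the count, Late and Early limits. Their Late means lay between 0 and 33.0% of the Hydrated mean, and their Dry means between 181% and 13289%. TRINITY_DN185751_c6_g2 and TRINITY_DN185751_c7_g1 missed the rule on 1 limit each. The signal of TRINITY_DN185751_c7_g1 was 194 and 189 in the Hydrated libraries, 103 and 152 in Early, 25.7 and 33.2 in Late, 468 and 225 in Dry, and 585 and 461 in Rehydrated. Some of the 6 had few reads before Dry: TRINITY_DN180756_c1_g2, named after its values were seen, had a signal of 0 in 1 Early and both Late libraries, so it met the Late limit without a measured fall.

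**Figure D2:**
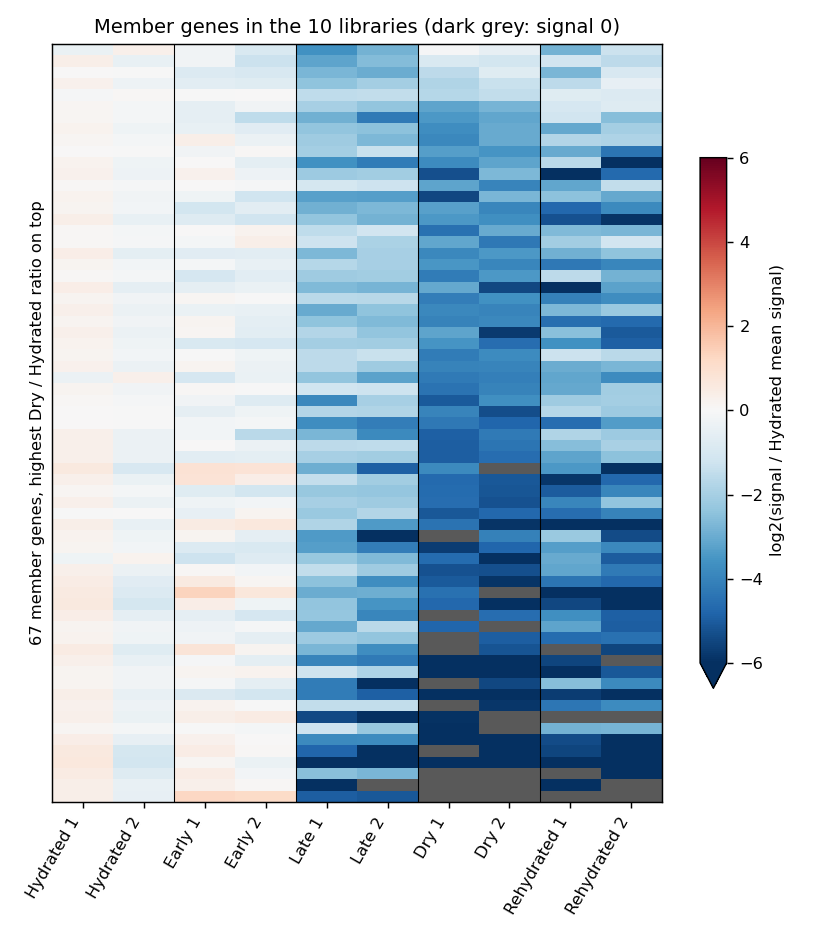
Each row is 1 of the 67 members and each column a library; colour is log2 of the deposited signal over the gene's Hydrated mean signal, dark grey marks a signal of 0, and values under -6 share the darkest blue. Late columns are blue in every row, most Dry columns are darker still, and a few rows at the top, with the highest Dry mean relative to Hydrated, return toward white in Dry.

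The 2 members with the highest level in the Hydrated and Early libraries differed in how far they fell. TRINITY_DN171573_c8_g1 had a signal of 1208 and 363 in Hydrated, 850 and 601 in Early, 9.87 and 4.93 in Late, 1.70 and 1.60 in Dry, and 1.99 and 1.27 in Rehydrated. Its counts were 9 and 5 in the Late libraries, 1 and 1 in Dry, and 2 and 1 in Rehydrated, so its Dry and Rehydrated levels rest on almost no reads. TRINITY_DN180094_c4_g1 had a signal of 494 and 308 in Hydrated, 706 and 536 in Early, 148 and 94.2 in Late, 16.1 and 12.0 in Dry, and 7.05 and 15.3 in Rehydrated. This gene was higher in both Early libraries than in either Hydrated library, kept 30.2% of its Hydrated mean at Late, and was lower again in both Dry libraries. Its Late mean was 121 ± 38.1 against 401 ± 132 in Hydrated (SD, n = 2 each).

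Of the 67 members, 7 shared the number after DN in their identifier with another member. The number 171573 stood in 5 members and in 1 gene that is no member. The counts of the 5 members together were 3133 and 873 in Hydrated, 1896 and 949 in Early, and 40 and 27 in Late. They were 1 and 3 in Dry, and 3 and 4 in Rehydrated. For these 5 members Hydrated replicate 1 held over 3 times the counts of Hydrated replicate 2. These counts are not scaled for depth, and the 2 libraries held 1917825 and 1398635 counts in all. TRINITY_DN171573_c6_g1 had the deepest fall at Late of all members, with 217 and 103 counts in Hydrated, 158.5 and 93.0 in Early, 1 and 0 in Late, 0 and 0 in Dry, and 1 and 0 in Rehydrated. A count of 0 allows up to 3 counts in a library. TRINITY_DN171573_c6_g1 and TRINITY_DN171573_c6_g2 each had counts that were not whole in 4 libraries, so their values are uncertain where reads were divided.

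Other genes of that number stood higher at Late. TRINITY_DN171573_c5_g1 had a signal of 55.8 and 47.9 in Late, against 452 and 184 in Hydrated, and then 0 in both Dry libraries. TRINITY_DN171573_c7_g2, which is no member, had a signal of 357 and 161 in Hydrated, 698 and 590 in Early, 160 and 70.2 in Late, 6.95 and 0 in Dry, and 4.91 and 0 in Rehydrated. Both its Early libraries lay above both Hydrated libraries, and its higher Late library lay at the level of its lower Hydrated library. Without these 5 members the share of counts was 0.200% and 0.111% in the Late libraries, against 1.33% and 0.982% in Hydrated, a fall close to that of all 67 members. The second number, 181649, joined TRINITY_DN181649_c0_g1 and TRINITY_DN181649_c2_g1. The signal of TRINITY_DN181649_c2_g1 was 138 and 106 in Hydrated, 135 and 80.4 in Early, 22.9 and 19.7 in Late, 7.48 and 8.44 in Dry, and 5.28 and 4.86 in Rehydrated.

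Between Late and Dry most members went on falling. The Dry mean of the signal was at most 0.5 times the Late mean in 53 members, at least 2 times it in 3, and between these in 11. Both Dry libraries lay below both Late libraries in 53 members (79.1%), against 47.7% of the 3991 genes with at least 200 counts, and above them in 4 members (5.97%), against 31.8%. In the test, 28 members were lower in Dry than in Late and 2 higher, beside 19.6% lower and 17.2% higher over all genes tested. Over the 3991 genes, 30.7% were lower and 27.8% higher. The median log2 fold change was -1.75 over the members, -0.29 over all genes tested and -0.11 over the 3991 genes. The Late values had been chosen to be low, so this comparison is given as a description.

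The size of this step depended on the scaling. With library totals in place of TMM, 50 members were lower in Dry than in Late and 1 higher, beside 36.4% lower and 8.4% higher over all genes tested. The members' median minus that of all genes tested was -1.46 under TMM; another scaling moves both medians nearly alike, so this difference carries no check of the scaling. All 28 members called lower were called under each of 4 scalings. With the 3 members at 0 counts in Dry set to their limit of 3 counts a library, the members' median was -1.68.

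In Dry, 9 members were under 1% of their Hydrated mean signal, 26 between 1% and 5%, 25 between 5% and 10%, and 5 between 10% and 50%. The remaining 2 members were above 50%. The members' median was 4.36%. The test called 65 members lower in Dry than in Hydrated, beside 24.1% of all genes tested, which again describes the choice. The Dry libraries together held a median of 7 counts a member, and 19 members had 3 or fewer, so the depth of the fall could not be measured in those genes.

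The members that rose again in Dry were few. TRINITY_DN173763_c0_g1 had a signal of 72.4 and 121 in Hydrated, 83.8 and 52.1 in Early, 7.77 and 13.7 in Late, 90.7 and 69.8 in Dry, and 13.7 and 39.5 in Rehydrated. Its Dry libraries overlapped the Hydrated ones, and both Late libraries lay below all of these. The log2 fold change was 2.87 in Dry vs Late under TMM (SE 0.447, edgeR adjusted p = 2.59e-05) and 1.88 under library totals (adjusted p = 0.00471). TRINITY_DN180488_c5_g1 was the other member called higher, with a signal of 61.9 and 112 in Dry and 27.6 and 23.5 in Late; this call was lost under library totals (adjusted p = 0.0919). TRINITY_DN180695_c1_g2 had a signal of 19.5 and 17.1 in Dry and 4.05 and 5.99 in Late, but its difference did not pass the test (log2 fold change 0.97, SE 0.471, adjusted p = 0.11). With the signal rescaled to equal library totals, no member had a Dry mean of at least 0.5 times its Hydrated mean, against 2 as deposited.

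**Figure D3:**
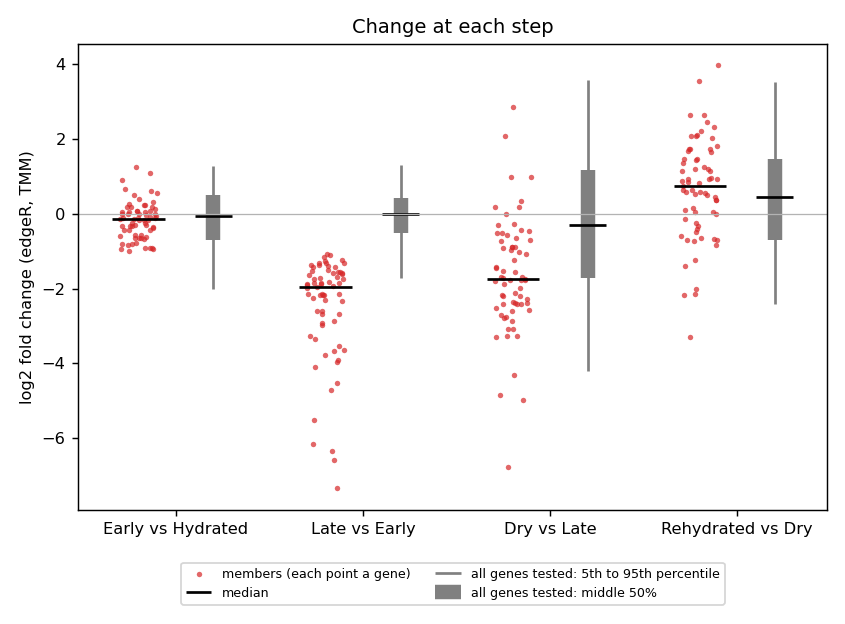
Log2 fold changes (edgeR, TMM scaling) at each successive step; red points are the 67 members, grey bars the middle 50% and grey lines the 5th to 95th percentile of all 9856 genes tested, black bars medians. The members' medians are -0.15 in Early vs Hydrated, -1.96 in Late vs Early, -1.75 in Dry vs Late and 0.76 in Rehydrated vs Dry.

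Genes that fell already in Early give a comparison for the step to Dry. There were 36 genes that met the rule except that their Early mean was under 0.5 times the Hydrated mean. The Late mean had a median of 18.3% of the Hydrated mean over the members and 6.70% over the 36 genes, and the Dry mean a median of 4.36% over the members and 5.62% over the 36 genes. The Dry mean was at most 0.5 times the Late mean in 53 of the 67 members, against 14 of the 36 genes. Both sets had a median of 7 counts in the Dry libraries together, and the Late libraries together held medians of 41 counts for the members and 14 for the 36 genes. The part of the lower Late counts in this was not tested, and neither was the difference between the sets.

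Rehydrated vs Dry was the comparison tested, because the rule set no direct relation between these stages. They entered it through the count sum over all 10 libraries and an upper limit of 2 times the Hydrated mean. No member came near that upper limit. The Rehydrated mean was at least 2 times the Dry mean in 30 members, at most 0.5 times it in 6, and between these in 30; 1 member had a signal of 0 in both stages. Both Rehydrated libraries lay above both Dry libraries in 30 members (44.8%), against 28.8% of the 3991 genes, and below them in 6 (8.96%), against 37.9%. The 3991 genes were chosen on counts summed over all 10 libraries, so genes with many Dry counts are among them. The members had a median of 7 counts in the Dry libraries together. The part of this choice in any contrast between members and the 3991 genes was not tested.

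In the test, 10 members were higher in Rehydrated than in Dry, 2 were lower, and 55 did not pass. Over all genes tested 7.23% were higher and 13.5% lower, and over the 3991 genes 9.62% were higher and 28.7% lower. With library totals in place of TMM, 46 members were higher and none lower, beside 59.6% and 2.24% of all genes tested. At an unadjusted p under 0.05 none was lower with library totals either, though the share of all genes at that threshold was not counted. Under each of 4 scalings 8 members were called higher and none lower. The members' median log2 fold change was 0.76 under TMM and 2.62 under library totals, and that of all genes tested 0.45 and 2.28. The members' median lay 0.31 above that of all genes tested and 1.08 above that of the 3991 genes under TMM. The median of the 3991 genes was itself -0.33, below the 0.45 of all genes tested. Over the 36 genes that fell already in Early the median was 0.80, so the rise was not particular to the members. Of those 36 genes, 2 were called higher and 0 lower. With members at 0 counts set to their limit of 3 counts a library, the median over the 66 members with a count in either stage was 0.70 under TMM.

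The number of calls moved with the filter and with some libraries. With no filter on low counts 6 members were higher and 4 lower. The median log2 fold change was then 0.665 over the members and 0.669 over all genes tested. The members' higher median relative to all genes thus depended on the filter. With the 9856 tested genes held fixed, there were 3 higher and 2 lower members without Dry replicate 1, 7 and 2 without Dry replicate 2, 9 and 1 without Rehydrated replicate 1, and 6 and 4 without Rehydrated replicate 2. Without a Hydrated, Early or Late library, 8 to 11 members were higher and 2 to 3 lower. DESeq2 called 5 higher and 3 lower. The shares of all genes called under these settings were not counted, so changes in the numbers cannot be read as particular to the members. Of the 10 higher members, 2 had 1 count in the Dry libraries together, and their fold changes, 3.56 and 3.98 on the log2 scale, rest on that count.

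Among members averaging at least 20 counts in these 4 libraries, TRINITY_DN184318_c4_g1 had the highest fold change. Its signal was 18.6 and 14.5 in the Rehydrated libraries and 2.19 and 3.49 in the Dry libraries, after 80.1 and 50.7 in Hydrated. Both Rehydrated libraries lay above both Dry and both Late libraries, and below both Hydrated ones. Its counts were 57 and 44 in Rehydrated and 7 and 6 in Dry (log2 fold change 2.21, SE 0.525, edgeR adjusted p = 0.00403; 4.08 with library totals). Without Dry replicate 2 the adjusted p was 0.0659 with the filter renewed, and 0.0419 with the tested genes held fixed.

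TRINITY_DN185490_c5_g1 had a signal of 10.6 and 16.4 in Rehydrated and 2.03 and 2.96 in Dry, from 34 and 37 counts in Rehydrated and 3 and 7 in Dry. Its log2 fold change was 2.09 (SE 0.519, adjusted p = 0.00565), or 3.92 with library totals. Without Dry replicate 1 it was 1.54 (adjusted p = 0.216) with the filter renewed and 1.63 (adjusted p = 0.0884) with the tested genes held fixed. This gene had 20.7 and 21.5 in Late, so 1 h after rewetting both libraries were below the level of late drying.

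TRINITY_DN173763_c0_g1, the member with the highest Dry level relative to Hydrated, went the other way. It had a signal of 13.7 and 39.5 in Rehydrated and 90.7 and 69.8 in Dry, from 25 and 33 counts in Rehydrated and 54 and 40 in Dry. The log2 fold change was -1.41 under TMM (SE 0.408, adjusted p = 0.0167) but 0.40 under library totals (adjusted p = 0.451), so its direction depended on the scaling. With the tested genes held fixed, the call was also lost without Dry replicate 1 (adjusted p = 0.138) and without Rehydrated replicate 1 (adjusted p = 0.118). TRINITY_DN178683_c2_g2, the other member called lower and named after its values were seen, had 14 and 7 counts in Rehydrated and 30 and 26 in Dry (log2 fold change -2.15, SE 0.491, adjusted p = 0.00296), and -0.26 with library totals (adjusted p = 0.687).

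**Figure D4:**
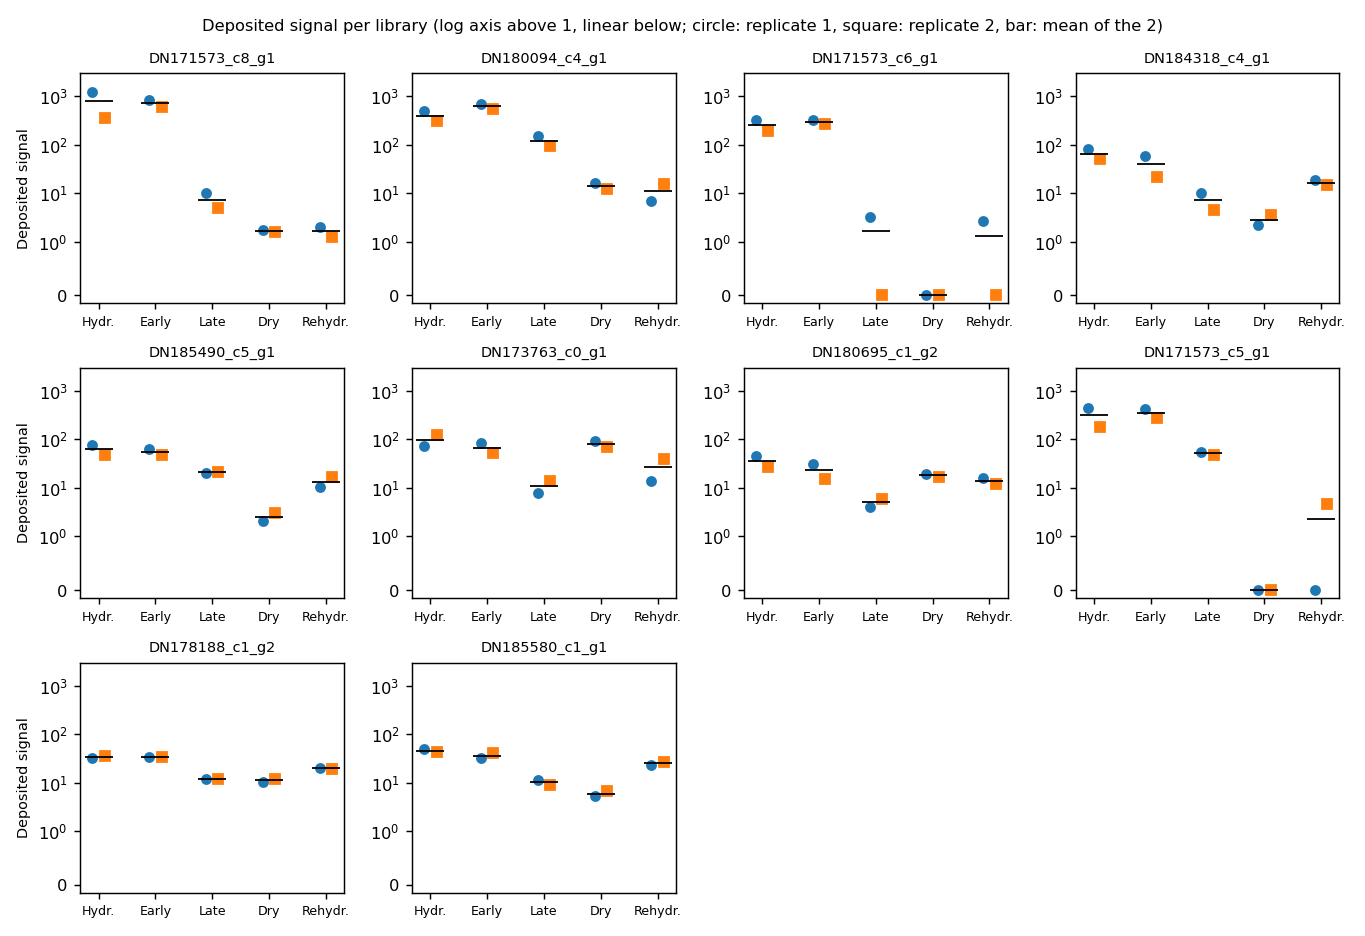
Deposited signal of 10 members in every library (log axis above 1, linear below), chosen for level, depth of the Late fall, and Dry or Rehydrated level; circles are replicate 1, squares replicate 2, bars the means of the 2. Every panel is lower in Late than in Hydrated and Early, DN173763_c0_g1 is back at 80.2 in Dry, and DN171573_c6_g1 and DN171573_c5_g1 are at 0 in both Dry libraries.

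After 1 h of water most members were still far below their starting level. The Rehydrated mean was under 1% of the Hydrated mean in 6 members, between 1% and 5% in 15, between 5% and 10% in 16, between 10% and 50% in 27, and above 50% in 3. Both Rehydrated libraries were below both Hydrated libraries in all 67 members, against 51.4% of the 3991 genes. The test called 65 members lower in Rehydrated than in Hydrated, beside 17.7% of all genes tested. It also called 33 of the 36 genes that fell already in Early. Their Rehydrated mean had a median of 8.09% of the Hydrated mean, close to the members' 8.46%. Hydrated values had been chosen to be high relative to Late, so these counts are a description. Dry and Rehydrated means were both under 0.5 times the Hydrated mean in 62 members (92.5%) and in 1215 (30.4%) of the 3991 genes.

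The member with the highest Rehydrated mean relative to Hydrated was TRINITY_DN178188_c1_g2. Its signal was 20.4 and 18.9 in Rehydrated and 32.0 and 34.5 in Hydrated. Its Rehydrated mean of 19.6 ± 1.07 stood at 59.0% of the Hydrated mean of 33.3 ± 1.77 (SD, n = 2 each). The Dry mean was 11.1, already 33.3% of the Hydrated mean. A difference from Dry did not pass edgeR's test under TMM (log2 fold change 0.54, SE 0.42, adjusted p = 0.365). Under library totals it did, at 2.45 (adjusted p = 0.000971). With that scaling the median of all genes tested was 2.28, and 59.6% of them were called higher. TRINITY_DN185580_c1_g1 had 22.7 and 27.0 in Rehydrated, 5.18 and 6.60 in Dry, and 49.7 and 41.9 in Hydrated. Its log2 fold change in Rehydrated vs Dry was 1.197 (SE 0.414, adjusted p = 0.0434), and its Rehydrated mean was 54.3% of the Hydrated mean. Set against Late, the Rehydrated mean was higher in 18 members and not higher in 49; both Rehydrated libraries lay above both Late libraries in 11 members (16.4%, against 25.2% of the 3991 genes) and below them in 39 (58.2%, against 49.1%).

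**Figure D5:**
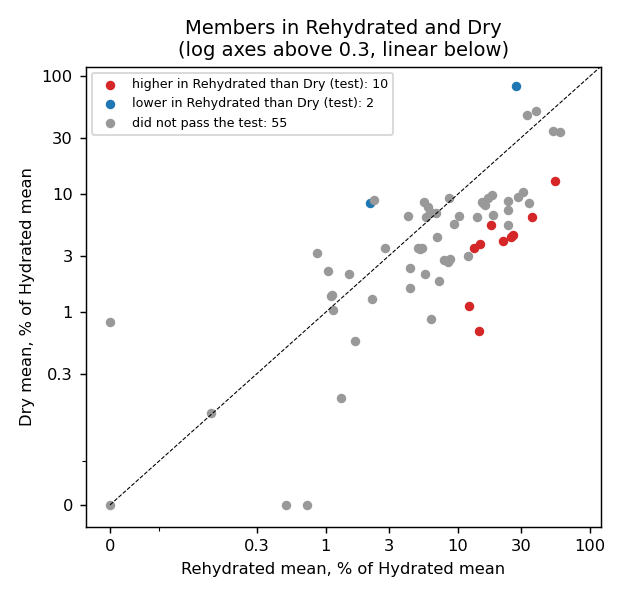
Rehydrated mean signal (x) and Dry mean signal (y) of the 67 members, each as a percent of the gene's Hydrated mean (log axes above 0.3, linear below); the dashed line marks equal values and colours give the result of edgeR's test under TMM. The 10 members called higher in Rehydrated lie right of the line, the 2 called lower lie left of it, and 62 of the 67 points are under 50% on both axes.

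In Hydrated, Early and Late most members were higher in replicate 1. Hydrated replicate 1 had the higher signal in 62 of the 67 members (92.5%), against 60.4% of the 3991 genes, and Late replicate 1 in 49 (73.1%), against 46.3%. In Early the number was 47 (70.1%), against 52.3%. In Dry it was 32 (47.8%), against 61.4%, and in Rehydrated 34 (50.7%), against 29.5%. The median fold between the replicates of a stage over members above 0 in both was 1.44 (Hydrated), 1.29 (Early), 1.37 (Late), 1.45 (Dry) and 1.98 (Rehydrated). Over those of the 3991 genes above 0 in both, it was 1.25 (Hydrated), 1.29 (Early), 1.32 (Late), 1.42 (Dry) and 1.64 (Rehydrated). In Rehydrated, where library totals were lowest, the spread was widest for the members and for the 3991 genes alike. The members had fewer counts in Dry, with a median of 7 in both libraries together against 20 in Rehydrated. The part of depth in the spread was not tested.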

How the data were processed

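Tables deposited by the authors were used: unnormalized expected counts per gene, and an expression signal scaled by TMM and gene length. Its unit ahead of TMM (TPM or FPKM) is not stated. The submitters' processing notes name RSEM 1.2.28, Bowtie2 2.2, Trimmomatic 0.35, CASAVA 1.4 and DESeq2, without role or order. Stages came from the stage labels and replicate numbers from the titles. Columns carry the prefix Sdes for Ades and the suffix _plant.

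The rule was applied to the deposited tables. Counts were rounded, filtered with filterByExpr at a minimum count of 10, scaled by TMM and tested in one fit over 10 libraries with a term per stage (5 residual degrees of freedom) in R 4.3.3 with the quasi-likelihood test of edgeR 4.0.16, and Benjamini-Hochberg adjustment over 9856 genes per comparison and calls at an adjusted p of 0.05. Standard errors were derived from fold changes and F statistics. The fit was also run on simulated counts with known changes and the same spread for all genes. No shift in composition between stages was put in, so that run does not check the scaling. Alternatives were library totals, RLE and upper-quartile scaling, DESeq2 1.42.0, no filter, limma 3.58.1 on log2 of the signal plus 0.1 or 1, fits of 4 libraries, a replicate block and leaving out each library, with the filter renewed or the tested genes held fixed. No permutation test was made, since with 2 against 2 libraries the smallest two-sided exact p is 0.333.

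Members and lists were chosen with earlier results of these data known. Named were the 2 members with the highest Hydrated and Early signal, the 2 deepest at Late, up to 2 rises and 2 falls in Rehydrated vs Dry (called, log2 size 1 or more, averaging 20 or more counts, libraries apart; 1 fall qualified), the 2 highest and lowest in Dry and the 2 highest in Rehydrated relative to Hydrated, the genes nearest each limit of the rule, and members sharing a number after DN; the choices by depth at Late and by Dry or Rehydrated level needed a mean of 50 counts in the Hydrated (for Late, also Early) libraries. Other names were chosen after their values were seen. Where 0 counts stood in both libraries of a stage, 3 counts a library set the limit.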

Additional observations from a re-analysis of the deposited data

How the results depend on the processing

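The rule gave 102 genes with a count sum of at least 100, and 39 or 111 with the Late limit at 0.4 or 0.6; with 1 library left out, between 64 and 135, the highest without Late replicate 1 (135) and Late replicate 2 (128). In Rehydrated vs Dry, library totals gave 46 higher and 0 lower members and a median log2 fold change of 2.62, DESeq2 5 higher, no filter 6 higher and 4 lower, and limma 1 lower with either added value. The median was 0.95 with upper-quartile scaling, 0.94 with limma on the signal plus 0.1, and 1.22 in the fit of 4 libraries, where 35 members passed the filter. With 1 library left out and the filter renewed, so that more genes were tested, higher members numbered 3 to 9, lower members 1 to 4, and the median lay between 0.37 and 0.93. With the tested genes held fixed, an alternative chosen after seeing the data, they numbered 3 to 11 and 1 to 4, and the median lay between 0.38 and 1.02. The remaining library of a stage is assumed to vary like the others. Here and below, shares of all genes called were counted under TMM and library totals only. Changes in the number of calls under other settings are thus no result about the members.

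For Dry vs Late, with alternatives chosen after seeing the data, library totals gave 1 higher and 50 lower members and a median of -2.73. The median was -1.64 with DESeq2, -1.86 with no filter, -2.18 with limma on the signal plus 0.1 and -1.95 in the fit of 4 libraries. With 1 library left out, 1 to 2 members were higher, 23 to 35 lower, and the median lay between -1.98 and -1.56; with the tested genes held fixed, 1 to 2 were higher, 24 to 32 lower, and the median lay between -1.95 and -1.47. With equal library totals 0 members had a Dry mean and 2 a Rehydrated mean of at least 0.5 times Hydrated; with 1 library left out these were 1 to 2 and 1 to 4.

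TRINITY_DN173763_c0_g1 reversed to 0.40 in Rehydrated vs Dry with library totals and lost its call with limma on the signal plus 0.1 (-1.77, adjusted p = 0.0958) or 1 (-1.72, adjusted p = 0.0516); with 1 library left out its log2 fold change lay between -1.95 and -1.11, that of TRINITY_DN184318_c4_g1 between 2.01 and 2.34, and that of TRINITY_DN185490_c5_g1 between 1.54 and 2.95. The replicate block gave 10 higher and 3 lower members in Rehydrated vs Dry. Over all genes tested, libraries with the same number deviated together with correlations between -0.08 and 0.15 over 10 pairs of stages. The numbers were thus not taken as pairs. Among the members, replicate 1 was higher in 92.5% (Hydrated), 70.1% (Early) and 73.1% (Late), but in 47.8% (Dry) and 50.7% (Rehydrated). Pairing was not tested on the members alone. Causes of these changes were not tested. Few counts in Dry limit what could be seen there.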
